A study of Mus musculus with 24 samples.

Results

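The Hox cluster genes are the protein-coding mouse genes named Hoxa, Hoxb, Hoxc or Hoxd and a number. They were taken by symbol from the mm10 gene table, which gave 39 members among 21887 protein-coding genes. Hoxa held 11 genes on chromosome 6, Hoxb 10 on chromosome 11 (chr11:96194316-96368254), Hoxc 9 on chromosome 15 (chr15:102921131-103036856) and Hoxd 9 on chromosome 2 (chr2:74668225-74765142). A peak was counted for a gene when its midpoint lay inside the gene span or within 20 kb of it. Together the windows around the 39 genes covered 617.378 kb. Neighbouring windows overlap, so a single peak can count for several Hox genes and the genes are not independent of each other.

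Hox genes encode homeodomain transcription factors that set position along the body axis of the embryo. They lie in clusters whose gene order follows the order of their expression, with low-numbered genes used early and towards the head and high-numbered genes late and towards the tail. In pluripotent stem cells the clusters are known as repressed domains held by Polycomb complexes, with marks of both active and silent chromatin at many promoters. Retinoic acid and the Cdx factors open the clusters during differentiation. Acetylation of histone H3 at lysine 27, H3K27ac, marks active enhancers and promoters, and Klf4, Oct4 and Sox2 are pluripotency factors that bind DNA.

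Chromatin immunoprecipitation and sequencing (ChIP-seq) of V6.5 embryonic stem cells, a line of C57BL/6-129 strain labelled E3.5, compared asynchronous with mitotic cells. All cells grew on irradiated feeders with LIF and serum, and then on gelatin with a MEK1 inhibitor (PD98059) and a Gsk3 inhibitor (Chir99021) for some passages before synchronization. Mitotic cells were shaken off after treatment for 7 h with the microtubule drug nocodazole (labelled dose 100 ug/ml), and no genetic change is named for either state. Klf4 had 3 asynchronous and 3 mitotic libraries, H3K27ac 2 and 2, Oct4 and Sox2 1 asynchronous and 2 mitotic each. A Klf4 library from stem cells mixed with neural progenitors was kept out of all comparisons. V6.5 is a single line, the labels do not say that the libraries came from separate cultures, and p-values then measure only the spread between these libraries, which may be technical.

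Each deposited list held the peaks of 1 library, and list lengths differed by state. Asynchronous Klf4 lists held 10575 to 21307 peaks and mitotic ones 3795 to 8438, while H3K27ac lists held 46491 and 47475 against 30771 and 36526. Oct4 had 3347 against 1246 and 5282 peaks, and Sox2 2986 against 1940 and 4537. Read depth is unknown, so a peak missing from a list is a peak not called, and a site bound in fewer cells cannot be told apart from one bound more weakly in each. The library titles begin with a code, called project here. The H3K27ac states came from different projects, so project and state cannot be told apart for that mark. For Klf4 only 1 project held both states. The other Klf4 libraries came from projects without a Klf4 library of the other state. As a check of the labelled cell type, all 10 stem cell marker genes (Nanog, Esrrb, Sox2 and others) had an H3K27ac peak within 20 kb in each of the 4 libraries.

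In asynchronous cells the Hox clusters carried many Klf4 and H3K27ac peaks and 1 peak each of Oct4 and Sox2, whose lists were shorter. Peaks of the same antibody that shared at least 1 bp were merged into regions. A region counted as asynchronous with peaks in at least 2 Klf4 libraries, both H3K27ac libraries or the single Oct4 or Sox2 library, and as mitotic with peaks in at least 2 mitotic libraries. An asynchronous Klf4 region lay within 20 kb of 29 of 39 Hox genes (74.4%), against 50.6% of all genes. A mitotic Klf4 region lay near 6 Hox genes (15.4%), against 23.2% of all genes. An asynchronous H3K27ac region lay near 32 Hox genes (82.1%), against 69.5% of all genes, and a mitotic one near 14 (35.9%), against 62.7%. By share of genes, Hox genes were thus above all genes in asynchronous cells and below them in mitotic cells, for both antibodies. By Klf4 peaks per 100 kb, Hox windows were not below the windows around all genes in mitosis. They had 214%, 215% and 282% of that density in the asynchronous libraries and 192%, 146% and 102% in the mitotic ones. In length covered by Klf4 peaks they had 186.5%, 191% and 260% in the asynchronous libraries. The mitotic values were 244%, 147% and 76.5%, so mitotic library 3 was below by that measure. Of the Hox genes with an asynchronous region, 6 of 29 also had a mitotic Klf4 region, where the share over all genes was 44.6%, and 14 of 32 also had a mitotic H3K27ac region, where it was 84.7%. Hoxb13 alone had an Oct4 region in asynchronous cells (13.6% of all genes did) and alone had a Sox2 region (10.9%). No Hox gene had a mitotic region of Oct4 (4.32%) or Sox2 (5.57%). By peaks per 100 kb, Hox windows had 97.3% (Oct4) and 116% (Sox2) of the density around all genes in the asynchronous libraries. In the mitotic libraries they had 0% and 0% for Oct4 and 80.5% and 0% for Sox2. Each of these densities rests on 0 or 1 peak.

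**Figure D1:**
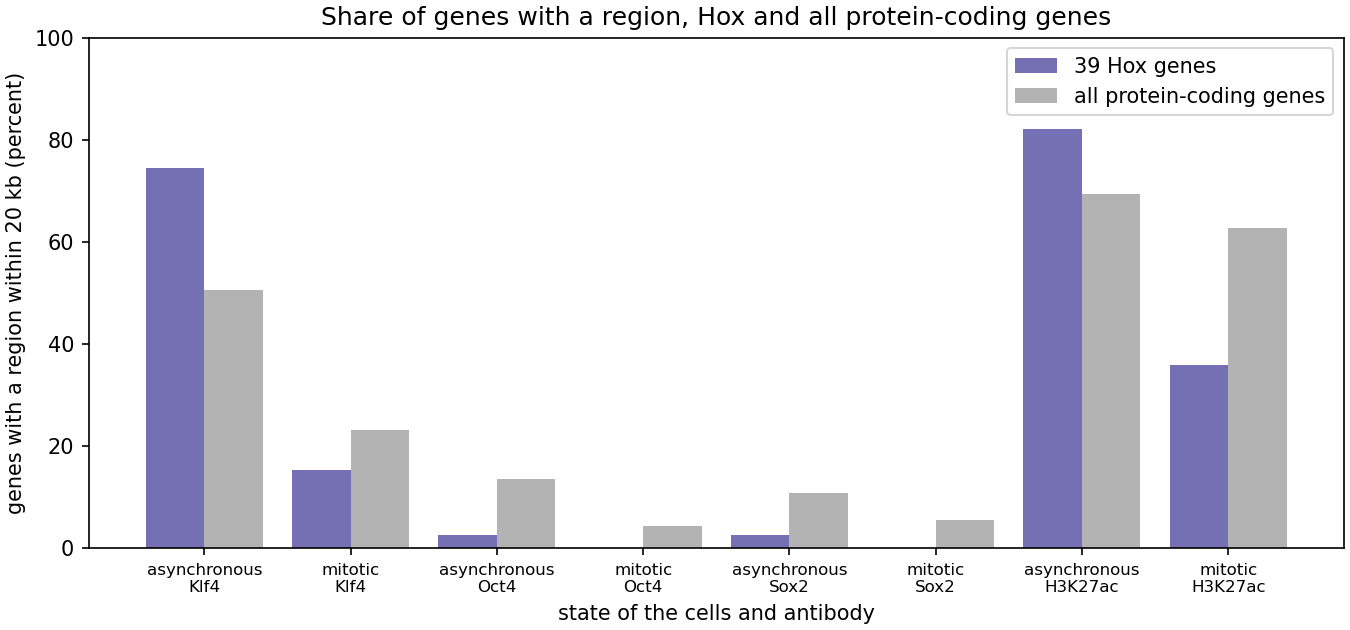
Percent of genes with a region within 20 kb (vertical axis) for each state and antibody, with the 39 Hox genes in purple and all 21887 protein-coding genes in grey. Hox bars stand above the grey ones for asynchronous Klf4 (74.4% against 50.6%) and H3K27ac (82.1% against 69.5%) and below them in every other pair.

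The Klf4 counts rested on the libraries and on list length. Without asynchronous library 2 the asynchronous count was 8 Hox genes and without library 3 it was 14, and without mitotic library 1 the mitotic count was 3. In these counts both remaining Klf4 libraries of the state had to have a peak, which is a stricter rule. When every Klf4 list was shortened to its 3795 strongest peaks, 3 Hox genes had an asynchronous and 5 a mitotic region, so the order of the states turned. The H3K27ac order held in equally long lists of 30771 peaks, at 23 asynchronous and 14 mitotic Hox genes. Without mitotic library 2 the mitotic count was 25 and without mitotic library 1 it was 18. A peak in the 1 remaining mitotic library then sufficed, so the rule was looser and the rise cannot be laid to a library.

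Few of the Hox promoters with available letters carried a region. The 250 bases before a start site were available from RefSeq for 24 starts of 22 Hox genes (build GRCm38.p6). These were 9 Hoxa, 9 Hoxd, 3 Hoxb and 1 Hoxc genes, so the shares describe mostly Hoxa and Hoxd. Hoxb13, Hoxc13 and Hoxc12 were among the genes without an entry. An asynchronous Klf4 region overlapped 3 of these 24 promoters, those of Hoxa5, Hoxa13 and Hoxd1 (20.2% of 21263 promoters of all genes), and a mitotic one overlapped 0 (7.91%). An H3K27ac region overlapped 1 of 24, the Hoxd13 promoter, in asynchronous cells (45.3% of all promoters) and again in mitotic cells (36.2%). In all, 6 promoters are shown 5′ to 3′ on the strand of the gene: the 4 that a region overlapped, and Hoxd12 and Hoxa11, neighbours of Hoxd13 and Hoxa13 without one. Capitals mark every match to GGGNGNGG on either strand, a GC-rich pattern of the kind Klf factors bind, and matches may overlap.
Hoxd13: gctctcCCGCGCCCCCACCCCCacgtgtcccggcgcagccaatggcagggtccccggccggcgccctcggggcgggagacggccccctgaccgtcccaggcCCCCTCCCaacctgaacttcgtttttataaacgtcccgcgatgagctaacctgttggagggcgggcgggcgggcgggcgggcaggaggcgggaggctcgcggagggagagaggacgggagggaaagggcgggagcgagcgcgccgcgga
Hoxd12: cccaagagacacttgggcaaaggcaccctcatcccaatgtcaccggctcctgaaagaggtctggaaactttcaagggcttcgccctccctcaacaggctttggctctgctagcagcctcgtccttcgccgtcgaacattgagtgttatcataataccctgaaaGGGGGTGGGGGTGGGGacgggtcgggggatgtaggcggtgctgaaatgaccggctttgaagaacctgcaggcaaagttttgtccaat
Hoxa13: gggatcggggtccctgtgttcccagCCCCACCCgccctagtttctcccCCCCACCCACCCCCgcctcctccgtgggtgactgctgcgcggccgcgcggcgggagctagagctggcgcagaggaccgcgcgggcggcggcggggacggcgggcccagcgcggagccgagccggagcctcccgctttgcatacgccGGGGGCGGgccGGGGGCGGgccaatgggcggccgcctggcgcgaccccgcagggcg
Hoxa11: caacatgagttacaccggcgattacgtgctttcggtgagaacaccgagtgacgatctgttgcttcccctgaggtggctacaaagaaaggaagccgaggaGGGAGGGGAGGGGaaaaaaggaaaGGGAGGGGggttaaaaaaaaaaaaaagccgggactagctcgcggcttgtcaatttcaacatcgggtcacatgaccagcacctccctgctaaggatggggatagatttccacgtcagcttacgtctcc
Hoxa5: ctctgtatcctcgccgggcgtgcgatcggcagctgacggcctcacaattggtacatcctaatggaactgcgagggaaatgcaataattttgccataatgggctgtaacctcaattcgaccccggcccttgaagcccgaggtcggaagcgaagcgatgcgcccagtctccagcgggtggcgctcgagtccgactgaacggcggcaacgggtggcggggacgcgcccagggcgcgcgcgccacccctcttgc
Hoxd1: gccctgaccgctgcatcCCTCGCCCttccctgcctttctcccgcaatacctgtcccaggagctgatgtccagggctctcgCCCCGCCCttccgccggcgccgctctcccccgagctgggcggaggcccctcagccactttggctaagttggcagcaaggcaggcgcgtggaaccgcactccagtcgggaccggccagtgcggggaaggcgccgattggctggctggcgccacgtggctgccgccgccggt
Their positions were chr2:74667975-74668224 (Hoxd13, plus strand), chr2:74674763-74675012 (Hoxd12, plus), chr6:52260881-52261130 (Hoxa13, minus), chr6:52245811-52246060 (Hoxa11, minus), chr6:52204588-52204837 (Hoxa5, minus) and chr2:74762730-74762979 (Hoxd1, plus). Hoxa13, which patterns the limb and genital tract, had the most matches of the 24 (5) and the most CG dinucleotides (35). The Hoxd13 promoter had 4 matches and 31 CG, and its unmarked neighbour Hoxd12 had 4 matches and 10 CG. The Hoxa5 promoter, which a Klf4 region overlapped, had 0 matches. A match stood in 17 of the 24 Hox promoters, against 52.9% of all 21263. None of the 24 Hox promoters held the octamer ATGCAAAT (1.58% of all) or the Sox pattern ACAATG (9.35%), searched on both strands. The median Hox promoter held 12.5 CG dinucleotides, against 10 over all promoters. A match is a description of these letters and not a measured binding site.

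Fewer Klf4 peaks were listed in the Hox windows in mitosis. The asynchronous libraries listed 8, 16 and 17 Hox peaks and the mitotic libraries 4, 2 and 3. The states were apart, with means of 13.7 ± 4.93 (SD, n = 3) and 3 ± 1 (SD, n = 3) and a log2 ratio of -2.19. Per 10000 listed peaks the asynchronous values were 7.57, 7.51 and 10.3 and the mitotic values 6.95, 5.27 and 3.56, which still did not overlap. In the 1 project with a Klf4 library of each state, 1 library a state, the counts were 17 asynchronous and 3 mitotic. In lists of 3795 peaks the counts were 3, 2 and 0 in both states, and the log2 ratio was 0. The libraries of that 1 project were those with 0 peaks. The states were thus apart in the full lists and not in the equally long ones. Marker genes of other cells moved in the same direction in the full lists: the 12 feeder fibroblast markers summed to 4 to 9 asynchronous and 1 to 2 mitotic Klf4 peaks, the 10 neural progenitor markers to 5 to 12 and 2 to 3, and the 10 stem cell markers to 33 to 61 and 13 to 29. Their part in the Hox result was not tested.

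Mean Klf4 counts were lower in mitosis in each of the 4 clusters, and no mitotic library listed a Hoxd peak. Hoxa had 4, 3 and 5 asynchronous and 1, 1 and 1 mitotic peaks. Hoxb had 2, 4 and 4 against 1, 0 and 1. Hoxc had 1, 4 and 4 against 2, 1 and 1, so its states overlapped. Hoxd had 1, 5 and 4 against 0, 0 and 0. Exact two-sided permutation tests gave p = 0.1 for Hoxa, Hoxb and Hoxd, the smallest p that 3 against 3 libraries allow, and p = 0.4 for Hoxc. Over all 6 libraries no cluster stood apart from another in Klf4 peaks per 100 kb. The lowest of the 6 pairwise p-values from exact sign flips was 0.13 (Hoxa above Hoxb in 5 of 6 libraries), and the lowest adjusted p (Benjamini-Hochberg, 6 pairs) was 0.656.

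**Figure D2:**
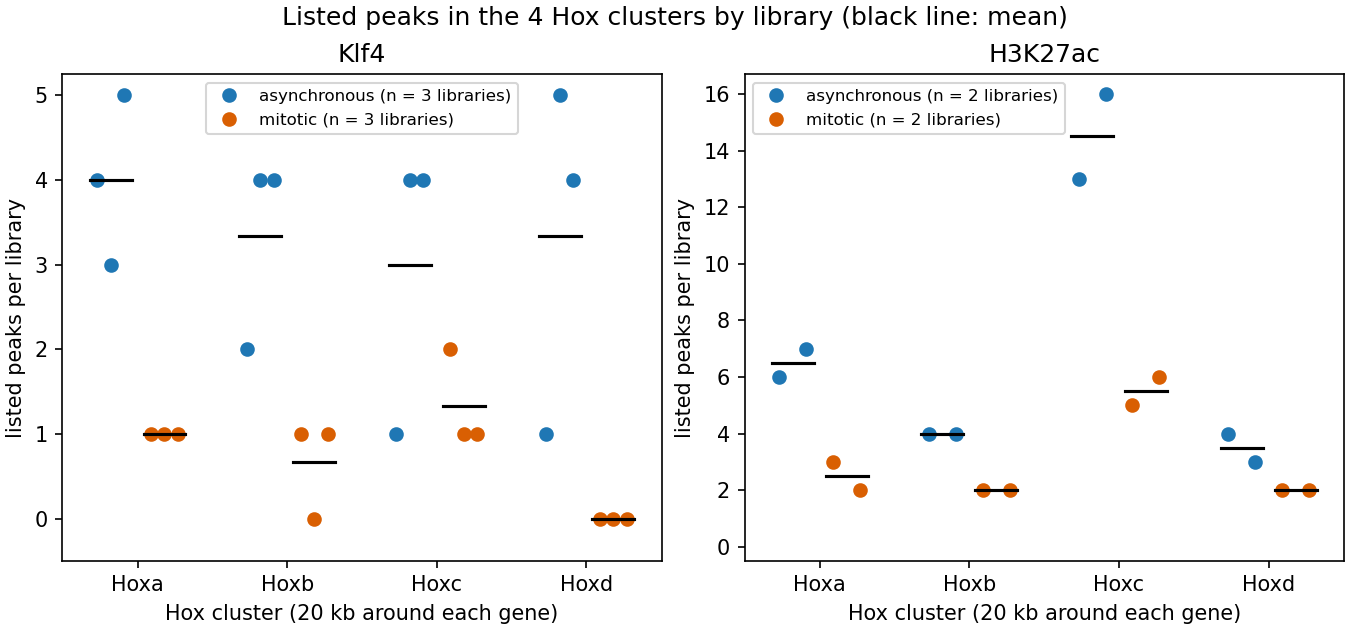
Listed peaks per library (vertical axis) within 20 kb of the genes of each Hox cluster, for Klf4 on the left and H3K27ac on the right, with 1 point per library and a black line at the mean. Mitotic Klf4 libraries list 0 peaks in Hoxd, and the asynchronous H3K27ac libraries list 13 and 16 peaks in Hoxc, more than in any other cluster.

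The 16 asynchronous Klf4 regions were split evenly, 4 to a cluster, and 3 of them were kept, meaning that at least 2 mitotic libraries had a peak there. That was 18.8% (95% exact interval 4.05 to 45.6%), against 26.9% of all 13982 asynchronous Klf4 regions. Another 11 (68.8%) had no mitotic peak and were lost, against 44% of all regions, and 2 were intermediate, with a peak in 1 mitotic library. The interval of the lost share was 41.3 to 89%, so both intervals contain the share of all regions, and they cover counting error only. No mitotic-only Klf4 region was found in the Hox windows. Without asynchronous library 2 the kept share was 75% (3 of 4) and without library 3 it was 50% (3 of 6). Both remaining asynchronous libraries then had to have a peak, and most lost regions rested on libraries 2 and 3.

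Kept Klf4 regions stood by Hoxb13 and Hoxc13. Fold here is the authors' own enrichment of a peak over local background, and it describes peaks within a list. The region by Hoxb13, a gene of the tail and prostate, lay 3.96 kb outside its span at chr11:96190126-96190595. Its folds were 7.21, 2.57 and 8.02 in asynchronous libraries, 3.89 and 4.93 in mitotic libraries 1 and 3, and no peak was listed in mitotic library 2. The region by Hoxc13, a gene of hair and nail, lay 0.235 kb outside its span at chr15:102920676-102921115. Its folds were 4.11, 3.29 and 6.63 in asynchronous libraries and 6.26 and 4.72 in mitotic libraries 1 and 2.

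The site by Hoxb13 was also the only Hox position with Oct4 or Sox2. Oct4 had a fold of 5.44 in its asynchronous library (chr11:96190260-96190548) and no peak in either mitotic library. Sox2 had a fold of 5.48 in its asynchronous library (chr11:96190273-96190517), 3.76 in mitotic library 1 and no peak in mitotic library 2. All 3 factors thus had a peak at this site in asynchronous cells, and it carried no asynchronous H3K27ac region. With 1 asynchronous library of Oct4 and of Sox2 there is no replicate check.

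The lost and intermediate Klf4 regions stood along all clusters. In Hoxa they lay at chr6:52191827-52192047 and chr6:52204509-52204687, both inside the long span of Hoxa3 and the second over the Hoxa5 promoter, and at chr6:52260609-52261363 over the Hoxa13 promoter (folds 6.55 and 6.08 in asynchronous libraries 1 and 3). In Hoxb they lay inside Hoxb9 (chr11:96271743-96272116, folds 2.88 and 5.56 in libraries 2 and 3), inside Hoxb3 (chr11:96345997-96346519) and 6.74 kb from Hoxb1 (chr11:96374816-96375162). In Hoxc the lost region lay between Hoxc13 and Hoxc12 (chr15:102934977-102935268, folds 3.26 and 5.58 in libraries 2 and 3). The intermediate ones lay in the same interval (chr15:102931625-102932248) and 4.94 kb from Hoxc4 (chr15:103041603-103041998), the latter with the highest mean percentile of fold among Hox regions (80.3). It had folds of 4.57 and 8.08 in asynchronous libraries 2 and 3 and 4.23 in mitotic library 3. In Hoxd all 4 regions were lost: 12.1 kb from Hoxd13 (chr2:74655882-74656305), at 2 places inside Hoxd3 (chr2:74713677-74713948 and chr2:74715780-74716143, the second with folds of 4.00 and 7.62 in libraries 2 and 3) and at the Hoxd1 start (chr2:74762769-74763177).

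Acetylation was also lower in the Hox windows in mitosis. The asynchronous H3K27ac libraries listed 27 and 30 peaks in the Hox windows and the mitotic libraries 12 and 12. The peaks covered 25557 and 24062 bp in asynchronous cells and 10755 and 9832 bp in mitotic cells. The log2 ratio of means was -1.25 for peaks and -1.27 for covered length. Per 10000 listed peaks the counts were 5.69 and 6.45 against 3.29 and 3.90, so the states stayed apart after scaling to list length. In lists of 30771 peaks the counts were 15 and 12 against 11 and 12, with a log2 ratio of -0.23, while covered length was 20557 and 16274 against 10153 and 9832 bp, with a log2 ratio of -0.88. Against the windows around all genes, Hox windows had 166% and 188% of the peak density in asynchronous cells and 96.3% and 114% in mitotic cells. In covered length they had 136% and 137% in asynchronous cells and 78% and 74.6% in mitotic cells.

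Marker genes of other cells also had fewer H3K27ac peaks in mitosis. The 12 feeder fibroblast markers summed to 8 and 9 H3K27ac peaks in the asynchronous libraries and to 4 and 3 in the mitotic ones, and 6 of the 12 (Col1a2, Dcn, Postn, Prrx1, Thy1 and Twist2) had no asynchronous region. The 10 neural progenitor markers summed to 23 and 19 against 15 and 11 peaks, with 8 of 10 having an asynchronous region and 6 a mitotic one. The 10 stem cell markers summed to 88 and 87 against 81 and 65. The part of other cells in the Hox result was not tested.

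The difference in H3K27ac was largest in Hoxc, which had the most peaks. Hoxc had 13 and 16 asynchronous and 5 and 6 mitotic peaks, which covered 13797 and 14076 bp against 4140 and 4447 bp. Hoxa had 6 and 7 against 3 and 2 peaks, Hoxb 4 and 4 against 2 and 2, and Hoxd 4 and 3 against 2 and 2. The states were apart in each cluster, and the exact two-sided permutation p was 0.33 in each, the smallest that 2 against 2 libraries allow. Hoxb differed least in covered length, with means of 4695 and 3593 bp. Per 100 kb, Hoxc held a mean of 6.42 peaks over the 4 libraries, against 3.09 in Hoxa, 2.01 in Hoxd and 1.67 in Hoxb. It was above each of the other clusters in 4 of 4 libraries, with an exact sign-flip p of 0.13, the smallest that 4 libraries allow, and 0.188 after adjustment over 6 pairs.

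Of the 21 asynchronous H3K27ac regions, 5 were kept (23.8%, 95% exact interval 8.22 to 47.2%), against 46.1% of all 32482. Another 13 were lost (61.9%, interval 38.4 to 81.9%), against 39.4%, and 3 were intermediate. Both intervals contain the share of all regions near their ends. Without each library in turn the kept share was 17.2 to 33.3%. A peak in the 1 remaining library of that state then sufficed, so the rule was looser. Without an asynchronous library the regions numbered 29 or 27, so the range is not a measure of stability.

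Kept acetylation lay at Hoxc13, at Hoxd13 and at a distant site in Hoxb. The region with the highest mitotic folds lay 18.9 kb from Hoxb9 at the noncoding gene Gm53 (chr11:96250198-96254662), with 17.0 and 19.4 in the asynchronous libraries, against 15.1 and 13.8 in mitosis. Hoxc13 had a kept region over the outer end of its span (chr15:102921033-102922538, folds 10.6 and 9.45 against 10.1 and 8.16) and another next to it (chr15:102920060-102920936, folds 3.84 and 4.07 against 4.36 and 3.75). Hoxd13, a gene of digit patterning, had a kept region across its start and promoter (chr2:74667905-74668553, folds 4.87 and 4.22 against 4.65 and 4.90). These positions held peaks in all 4 H3K27ac libraries.

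The widest Hox domain of asynchronous cells was listed in only 1 mitotic library. It spanned 5685 bp between Hoxc13 and Hoxc12 (chr15:102930318-102936002) and had folds of 23.6 and 23.6, the highest among Hox regions. In mitotic cells library 1 listed no peak there and library 2 listed 1 with a fold of 3.75. The lost regions with the highest mean percentile of fold stood inside Hoxc12 (chr15:102936811-102937594, folds 6.84 and 11.1), 4.86 kb from Hoxc4 (chr15:103040511-103042911, 7.48 and 8.60), where Hoxa3 and Hoxa4 overlap (chr6:52191083-52191741, 7.36 and 5.77) and in Hoxd8 (chr2:74704641-74705764, 6.76 and 5.72). None of these 4 had a peak in a mitotic library.

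Further lost regions in Hoxc stood inside Hoxc13 (chr15:102926839-102927658), between Hoxc12 and Hoxc11 (chr15:102942596-102943408), in Hoxc11 (chr15:102954574-102955277), in Hoxc6 (chr15:102999286-102999686) and in Hoxc4 (chr15:103034791-103035296). In Hoxa, 2 more were lost inside Hoxa3 (chr6:52172198-52172585 and chr6:52191995-52192539), and in Hoxb those in Hoxb9 (chr11:96271236-96272522) and 0.635 kb from Hoxb2 (chr11:96354411-96354899). The intermediate regions beside the Hoxc domain were between Hoxa7 and Hoxa9 (chr6:52221262-52221877) and in Hoxd9 (chr2:74697902-74698915). A stretch of 34.7 kb between Hoxb13 and Hoxb9 lies more than 20 kb from any Hox gene, and a Klf4 region and an H3K27ac region there, both lost, are not members. A region inside Hoxc6 was listed only in mitosis (chr15:103006691-103008267, folds 4.65 and 5.76).

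**Figure D3:**
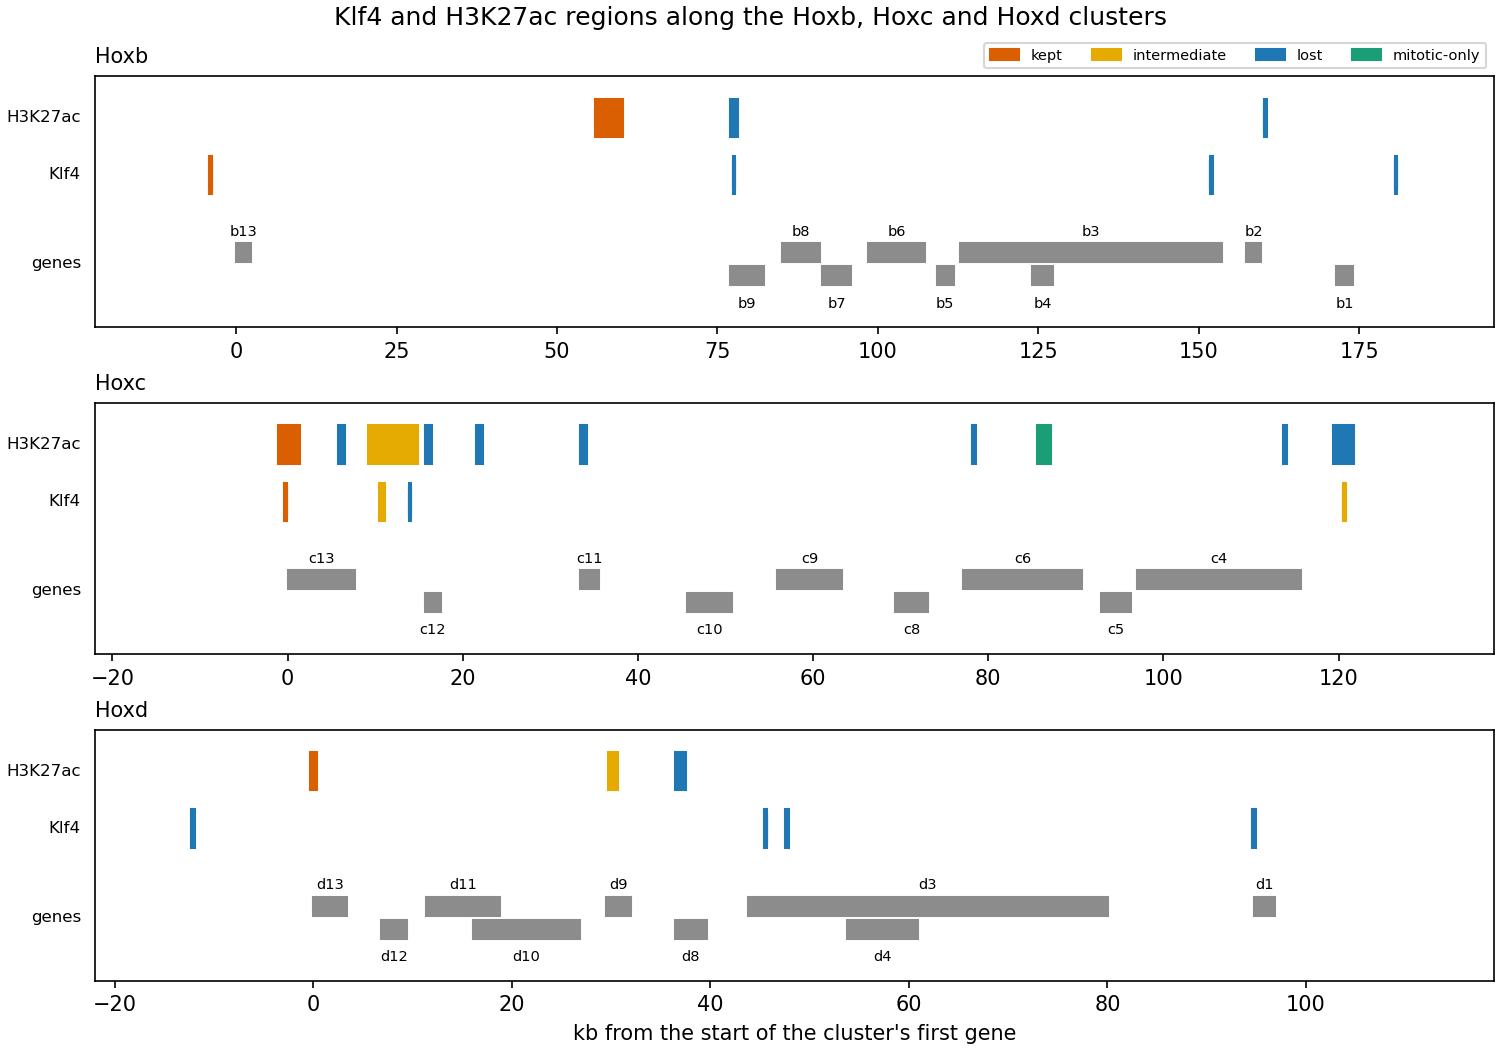
Klf4 and H3K27ac regions along the Hoxb, Hoxc and Hoxd clusters, drawn to scale in kb from the start of the first gene (horizontal axis) above the gene spans in grey, with regions coloured as kept, intermediate, lost or mitotic-only and each centred on a tick of fixed width so that narrow ones can be seen. Kept regions (orange) stand at the Hoxb13, Hoxc13 and Hoxd13 ends, with 1 kept H3K27ac region between Hoxb13 and Hoxb9.

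Kept regions lay near the ends of the clusters. All 3 kept Klf4 regions were within 5 kb of a cluster end, at 0.235 to 3.96 kb, against 2 of the 11 lost regions, whose median distance was 22 kb. Of the 5 kept H3K27ac regions 4 were within 5 kb of an end, with a median of 0.654 kb, against 2 of 13 lost ones with a median of 21.9 kb. The exception was the region at Gm53, 58.1 kb from the Hoxb13 end. Among the other 4, 2 stood next to each other at Hoxc13, and the kept Klf4 region there overlapped both. The counts of the antibodies thus partly repeat the same places. Of the 2 intermediate Klf4 regions 1 was also within 5 kb, 4.94 kb from the Hoxc4 end. Within 5 kb of an end the lost Klf4 regions were at Hoxa13 (0.106 kb) and Hoxd1 (2.17 kb), and the lost H3K27ac regions were at the Hoxc4 end (1.81 and 4.86 kb). This distance and its limit of 5 kb were chosen after the values were seen, and no test was made.

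**Figure D4:**
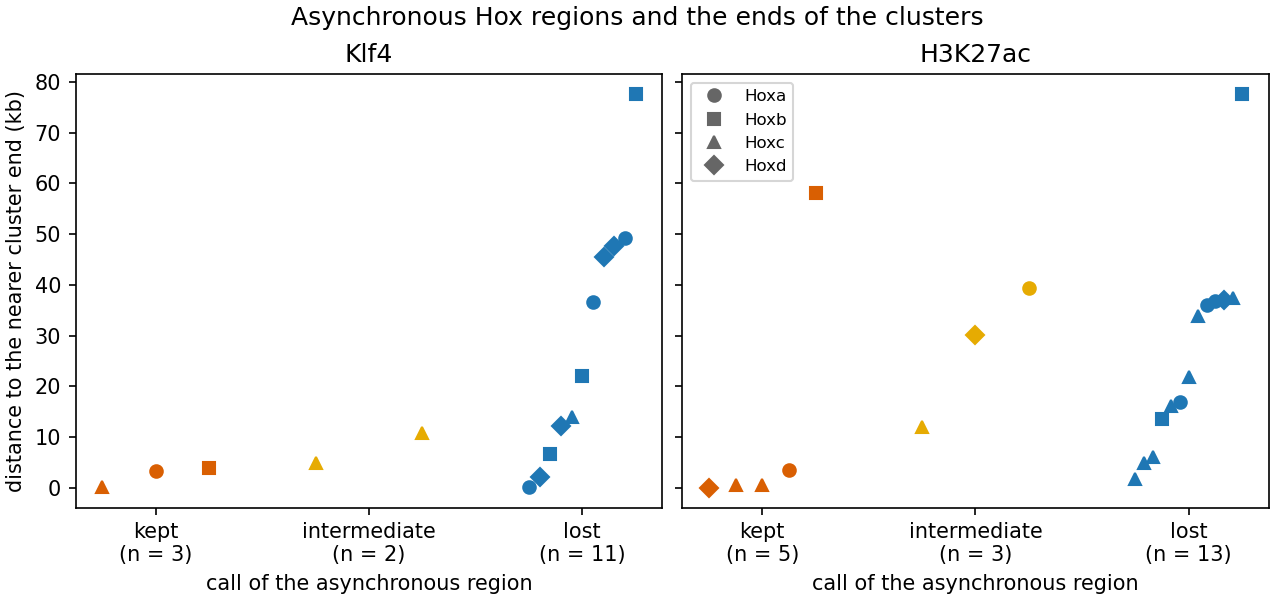
Distance of each asynchronous Hox region to the nearer end of its cluster (vertical axis, kb) by call, with Klf4 on the left and H3K27ac on the right and the cluster given by the marker. The kept points lie below 5 kb apart from the Hoxb region at Gm53 (58.1 kb), while lost points spread up to 77.6 kb.

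Many Hox regions were weak within their lists. The mean percentile of fold within the asynchronous lists had a median of 36.4 over the 16 Hox Klf4 regions and 45.9 over the 21 H3K27ac regions. The weakest quintile of all regions held 8 of the 16 and 8 of the 21 Hox regions. In that quintile 7.65% of all Klf4 and 12.3% of all H3K27ac regions were kept, against 59.2% and 94.2% in the strongest quintile. The quintiles between had 13.6%, 21.4% and 32.6% for Klf4 and 19.6%, 38.9% and 65.3% for H3K27ac. From weakest to strongest, the Hox Klf4 regions kept were 0 of 8, 1 of 2, 1 of 2, 0 of 2 and 1 of 2. Those of H3K27ac were 2 of 8, 0 of 5, 0 of 3, 1 of 2 and 2 of 3. The part of strength in the Hox result was not tested. In the strongest H3K27ac quintile 2 of 3 Hox regions were kept, and the third was the intermediate domain between Hoxc13 and Hoxc12. The median width of the Hox H3K27ac regions was 813 bp, against 1237 bp over all asynchronous regions, while that of the Klf4 regions was 402.5 bp, close to the 430 bp over all.

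Some Klf4 regions lay within acetylated regions. Of the 16 asynchronous Klf4 regions 7 overlapped an asynchronous H3K27ac region, or 43.8% (95% exact interval 19.8 to 70.1%), against 70.6% of all 13982. All 4 Hoxc regions did, as did those at Hoxa3 (chr6:52191827-52192047) and in Hoxb9, while none of the 4 in Hoxd did.

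Gene by gene, every mitotic library was below every asynchronous one at 20 Hox genes for H3K27ac and at 8 for Klf4. For the 20 of 39 in H3K27ac the share over all genes was 29.8%. These were Hoxa3 to Hoxa7, Hoxa9, Hoxa11, Hoxb1 to Hoxb3, Hoxc10 to Hoxc13, Hoxd3, Hoxd4 and Hoxd8 to Hoxd11. Hoxc12 had 10 and 10 peaks in the asynchronous libraries, against 2 and 3 in mitosis, and Hoxc11 had 6 and 6 against 0 and 0. Hoxa4 had 3 and 4 against 0 and 0. Hoxc6 was the only Hox gene with more in mitosis, at 1 and 2 against 3 and 3 peaks (7.88% of all genes went this way). For the 8 in Klf4 the share over all genes was 10.6%, and 0 Hox genes had more Klf4 peaks in every mitotic library (0.0137% of all genes). The 8 were Hoxa3 to Hoxa7, Hoxa9, Hoxb1 and Hoxd3. Hoxa3 had 3, 3 and 3 against 1, 1 and 1 peaks, and Hoxa6 had 2, 2 and 2 against 0, 0 and 0.

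Each gene can be placed by what lay within 20 kb. In Hoxa, Hoxa2 and Hoxa3 kept both a Klf4 and an H3K27ac region, while Hoxa4, Hoxa5, Hoxa6, Hoxa7 and Hoxa9 had asynchronous regions of both and no mitotic region. Hoxa10 had an H3K27ac region alone and Hoxa11 and Hoxa13 a Klf4 region alone, all asynchronous. In Hoxb, Hoxb13 kept Klf4 and had no H3K27ac region, and Hoxb9 kept H3K27ac and lost Klf4. Hoxb8, Hoxb7, Hoxb3, Hoxb2 and Hoxb1 had asynchronous regions of both and no mitotic region. Hoxb6, Hoxb5 and Hoxb4 had no region of any antibody in either state. In Hoxc, Hoxc13 and Hoxc12 kept both, Hoxc11 had asynchronous regions of both and no mitotic region, and Hoxc10, Hoxc9, Hoxc8, Hoxc6 and Hoxc5 had no Klf4 region. Hoxc10 and Hoxc9 had an asynchronous H3K27ac region and no mitotic one. Hoxc8, Hoxc6, Hoxc5 and Hoxc4 had asynchronous H3K27ac regions and were near the mitotic-only one in Hoxc6, and Hoxc4 was also near the intermediate Klf4 region beyond it. In Hoxd, no gene had a mitotic Klf4 region. Hoxd13, Hoxd12, Hoxd11 and Hoxd10 had the kept Hoxd13 acetylation within 20 kb, and all of them except Hoxd11 also had an asynchronous Klf4 region. Hoxd9, Hoxd8, Hoxd3 and Hoxd4 had asynchronous regions of both and no mitotic region, and Hoxd1 had an asynchronous Klf4 region alone.

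Acetylation was lower in mitosis inside the clusters, and it was higher in 1 outer zone, from 20 to 50 kb, which held few peaks. Inside the cluster spans 4.89% and 4.61% of the length was covered by H3K27ac peaks in asynchronous and 1.92% and 1.85% in mitotic cells. In the windows around all genes the cover was also lower in mitosis, at 3.05% and 2.86% against 2.23% and 2.13%. Up to 20 kb outside, the cover was 2.05% and 1.82% against 1.18% and 0.672%. From 20 to 50 kb outside it was higher in mitotic cells, at 1.82% and 2.12% against 0.644% and 0.907%. That zone held 5 and 4 mitotic against 1 and 2 asynchronous peaks. Between 50 and 200 kb the cover was lower in mitosis again. From 50 to 100 kb it was 5.95% and 6.17% in asynchronous against 4.95% and 4.82% in mitotic cells. From 100 to 200 kb it was 4.45% and 4.35% against 3.94% and 3.585%. From 200 to 500 kb outside it was nearly alike, at 4.14% and 3.83% against 3.80% and 3.81%, with 83 and 78 against 83 and 62 peaks.

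**Figure D5:**
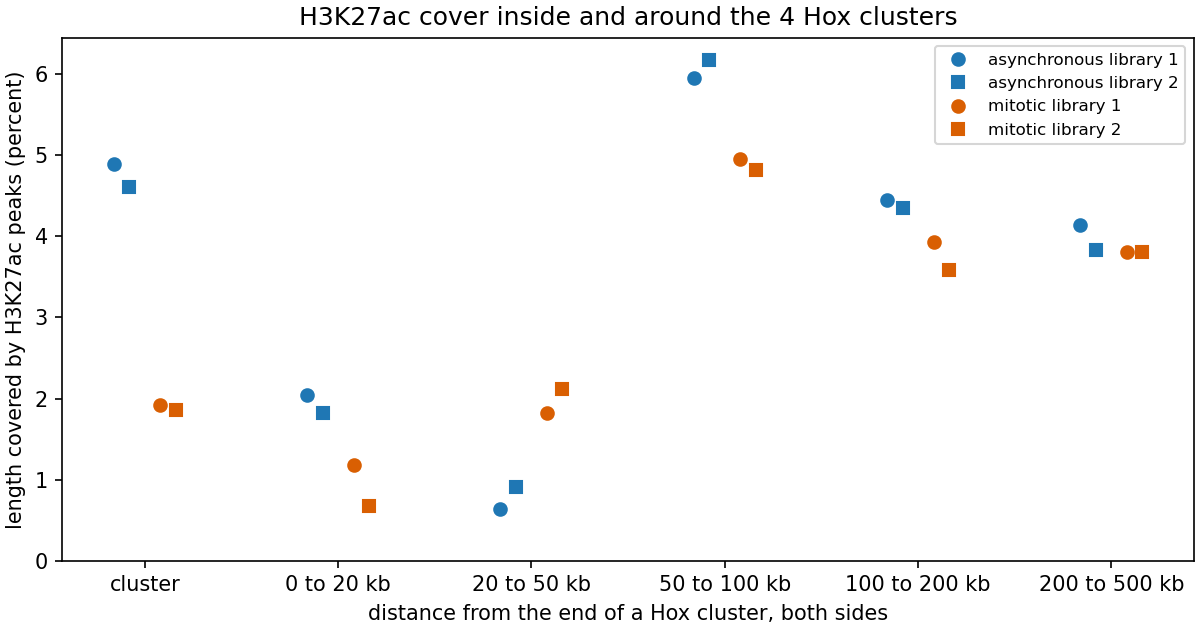
Percent of length covered by H3K27ac peaks (vertical axis) inside the 4 Hox clusters and in zones of rising distance on both sides, with blue points for the asynchronous and orange points for the mitotic libraries. Inside the clusters the mitotic points (1.92% and 1.85%) lie below the asynchronous ones (4.89% and 4.61%). From 20 to 50 kb they lie above, and from 50 to 200 kb below again.

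The nearest neighbour genes were taken 2 on each side of each cluster. All 16 had an asynchronous H3K27ac region within 20 kb and 14 had a mitotic one, while 15 had an asynchronous and 9 a mitotic Klf4 region. Beside Hoxa, Skap2 had 6 H3K27ac regions in either state and Snx10 went from 9 to 2, while Hibadh had 1 and 3. Beside Hoxb, Ttll6 had 8 and 5, Calcoco2 9 and 6, Skap1 7 and 4 and Snx11 8 and 3. Beside Hoxc, Calcoco1 and Atp5g2 each had 1 and 2, Cbx5, a heterochromatin protein gene, had 6 and 2 and Smug1 2 and 0. Beside Hoxd, Lnpk and Mtx2 each had 1 and 1 and Gm50595 4 and 3. The homeobox neighbours Evx1 and Evx2 had 1 and 0 and 1 and 1, and the window of Evx2 overlaps that of Hoxd13.

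Lists of related genes were compared in the same way, by counts alone. Of 40 homeobox genes outside the clusters, 25 had an asynchronous and 9 a mitotic H3K27ac region, and 20 and 4 had a Klf4 region. Vax2, Otx2 and Dlx3 had the most asynchronous H3K27ac regions of that list (5, 4 and 2). Of 9 Hox cofactors, the Pbx, Meis and Pknox proteins that bind DNA with Hox factors, 8 had an asynchronous and 7 a mitotic H3K27ac region, led by Pknox2 with 11 and Pknox1 with 7 asynchronous regions. Of 20 genes of retinoic acid signalling and the Cdx factors, 13 and 11 did, with Rara, a retinoic acid receptor, at 10 and 6. Of 19 Polycomb and Trithorax genes, which silence or maintain Hox expression, 19 and 17 did, with Cbx7 and Kdm2b each at 10 and 8. In H3K27ac the homeobox genes outside the clusters went from 62.5% to 22.5% and the Hox genes from 82.1% to 35.9%, where all genes went from 69.5% to 62.7%. Pax6 was in both the homeobox and the neural progenitor list.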

How the data were processed

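ChIP-seq of asynchronous and mitotic V6.5 cells was analysed from the deposited peak lists, 1 per library. Per the submitters' processing notes the authors trimmed reads with cutadapt 1.8.1, aligned them to mm10 with Bowtie2 2.2.5, made coverage with deepTools 2.3.6 and called peaks with MACS2 2.1.1. In these deposited lists the fold enrichment of a peak is a ratio, the authors gave its p-value and q-value on a −log10 scale, and a score column is also deposited. The lowest listed −log10 p-value was 5. The lists hold no read counts, so depth is unknown and list length was used as the yield.

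Genes and positions came from the RefSeq table of GRCm38.p6, which has no strand, and promoter letters from RefSeq of the same build. Windows of 20 kb around each gene were searched with peak midpoints, and peaks were merged at an overlap of at least 1 bp. The planned loci were whole cluster spans with 20 kb on each side; the windows of the member rule, which leave out 34.7 kb in Hoxb, were used instead, and the planned loci became an alternative. States were compared with exact two-sided permutations and clusters with exact two-sided sign flips, both checked on small sets of numbers with a known p-value. Merging of peaks and their link to genes were checked on simulated peaks. Every Hox gene is named except 1, which with the regions at it is not reported here but is in the counts, regions are given by position, and folds are given for up to 8 asynchronous regions per antibody with the highest mean percentile of fold, for kept regions and for mitotic-only ones. The members and the lists of genes were chosen with earlier results of these data known. Asynchronous Klf4 libraries were numbered in accession order. Alternatives were other windows, a q-value limit, equally long lists, other region rules and leaving out each library. Python 3.11.15, numpy 2.4.6, pandas 2.3.3, scipy 1.17.1 and matplotlib 3.10.9 were used. The inputs had no list and were not analysed here, and 17 Hox genes had no promoter entry.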

Additional observations from a re-analysis of the deposited data

Results flagged for a closer look

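The Klf4 library made from 10% stem cells and 90% neural progenitors was used in no comparison, and 1 of its 1334 listed peaks lay in the Hox windows. It was picked out because it is a signal in data outside the main measurement. The peak lay inside the Hoxa3 span (chr6:52178401-52178448) and had a fold of 4.10, and no Klf4 region of the stem cell libraries was listed at that position. The library has no replicate and the difference was not tested.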

How the results depend on the processing

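Of 132 alternative values 100 kept close to the reported value and 32 moved. Closeness was judged loosely: 23 against 32 asynchronous H3K27ac Hox genes counted as close, as did Klf4 kept shares of 6.25% and 31.2% against 18.8%. Some values could hardly move, such as asynchronous counts without a mitotic library, so the 100 is not a measure of robustness. Windows of 5 kb around genes gave 15 asynchronous Klf4, 17 asynchronous H3K27ac and 5 mitotic H3K27ac Hox genes, and windows of 50 kb gave 11 mitotic Klf4 and 29 mitotic H3K27ac Hox genes. With 0 kb around the clusters the log2 ratio of peaks was -2.86 for Klf4 and -1.41 for H3K27ac, and with 50 kb that of H3K27ac was -0.91 for peaks and -0.87 for covered length. At a −log10 q-value of at least 5, Klf4 had 13 asynchronous and 0 mitotic Hox genes, 0 regions kept, Oct4 and Sox2 0 asynchronous Hox genes, and H3K27ac log2 ratios of -0.95 for peaks and -1.18 for covered length. In equally long lists Klf4 had 3 asynchronous Hox genes, a log2 ratio of 0 and 100% kept (1 of 1 region), Oct4 0 Hox genes, and H3K27ac log2 ratios of -0.23 and -0.88. Counting a peak in any 1 library gave 1 mitotic Sox2 and 27 mitotic H3K27ac Hox genes. Leaving out each library gave 8 to 29 asynchronous and 3 to 6 mitotic Klf4 Hox genes, 0 to 1 mitotic Sox2 and 14 to 25 mitotic H3K27ac Hox genes, H3K27ac log2 ratios of peaks of -1.32 to -1.17 and Klf4 kept shares of 6.25 to 75%. The causes were not tested. The whole cluster spans, planned at first and made an alternative after the data were seen, gave log2 ratios of -2.26 for Klf4 peaks and -1.30 for both H3K27ac measures and kept shares of 17.6% and 22.7%. The 1 project with Klf4 in both states, chosen for this count after the data were seen, gave 30 asynchronous and 5 mitotic Klf4 Hox genes.

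With a replicate block the H3K27ac log2 ratios were -1.25 for peaks and -1.27 for covered length. The deviations of same-numbered H3K27ac libraries had a correlation of -0.03 over 21887 genes. With 2 libraries a state this value cannot settle whether same-numbered libraries belong together. The labels number every asynchronous Klf4 library 1, so Klf4 had no such analysis. With 2 or 3 libraries a state, no cluster could pass a threshold of 0.05, and without read counts a missing peak has no detection limit.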
